A study of Mus musculus with 12 samples.

Results

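The 9 genes described here encode *Ptgds*, the lipocalin-type prostaglandin D synthase, and the other enzymes that make or degrade prostaglandins: *Hpgds*, *Ptgs1*, *Ptgs2*, *Ptges*, *Ptges2*, *Ptges3*, *Ptgis* and *Hpgd*. They are 9 of the 55536 genes counted, found in every library by the gene symbol that the annotation gives to each identifier. *Ptgds* was picked because its level was higher in *Snx14*-KO tissue of both brain regions in these libraries, so its genotype differences are given as a description with no test. The other 8 were chosen by their enzymatic function.

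RNA was sequenced from the cerebellum and the cerebral cortex of 1-month-old mice, with 3 WT and 3 *Snx14*-KO mice and a library from each tissue of each mouse. SNX14 is a sorting nexin, a protein of membrane and lipid traffic whose loss in humans causes a cerebellar ataxia. The *Snx14*-KO mice were homozygous for a single-base frameshift deletion in *Snx14*, made with Cas9 in C57BL/6J embryos and backcrossed to C57BL/6J, and the controls carried no *Snx14* mutation. All *Snx14*-KO mice therefore carry the same allele, and part of the homozygous embryos are lost before birth, so the mice sampled are survivors. The labels give the cell content as a mixture and do not give the sex of the mice. Mouse numbers run from 1 to 3 within each genotype, and the same number in both tissues is the same mouse.

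Prostaglandins are lipid signals made from arachidonic acid that phospholipases and lipases free from membrane lipids. The cyclooxygenases PTGS1 and PTGS2 turn it into prostaglandin H2, from which the terminal synthases make prostaglandin D2 (PTGDS, HPGDS), prostaglandin E2 (PTGES, PTGES2, PTGES3) and prostacyclin (PTGIS), and HPGD starts their breakdown. In the rodent brain PTGDS is known from the leptomeninges, the choroid plexus and oligodendrocytes, is secreted into the cerebrospinal fluid as β-trace, and carries retinoids and other lipophilic molecules as well as making prostaglandin D2.

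Counts on genes summed to 16672589 to 19887427 per library. *Snx14* was below the WT mean of its tissue by 82.7% to 84.0% in the *Snx14*-KO cerebella and by 84.9% to 86.3% in the *Snx14*-KO cortices. Of the defining markers of the labelled tissues, all 8 cerebellar neuron genes were higher and all 8 cortical neuron genes lower in cerebellum than in cortex of WT mice, with median log2 fold changes of 6.38 and -5.21. The X-inactivation transcript *Xist* was at 383 to 625 CPM (counts per 1000000 counts, after TMM normalization for library size) in both tissues of mouse 1 of each genotype and at 5.60 CPM or less in the other libraries, and the Y-linked *Ddx3y* was at 0.159 CPM or less in mouse 1 and at 69.3 to 91.4 CPM in the others. Each genotype therefore held 1 mouse of one sex and 2 of the other. *Snx14*-KO cerebellum 3, with 685 CPM summed over 12 microglia genes against 230 to 297 in the other 5 cerebella, and *Snx14*-KO cortex 2, with 463 CPM summed over 16 meningeal fibroblast genes against 127 to 185 in the other 5 cortices, stood apart.

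*Ptgds* (ENSMUSG00000015090.13) is a minus-strand gene of chromosome 2 (25466709 to 25470046, GRCm38). Its 1649 exon bases were shared with no other gene, so its reads were counted for no other gene. Since *Ptgds* is the gene whose level the results turn on, the sequence before its start is shown as RefSeq gives it. The stretch chr2:25469843-25469999 (GRCm38.p6, minus strand, 157 bases) ends 94 bases before the RefSeq start. It lies upstream of 4 of the 5 annotated *Ptgds* transcripts and within the span of the other, longer transcript. Capitals mark each match to CANNTG, the E-box, which reads the same on both strands.

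*Ptgds* upstream: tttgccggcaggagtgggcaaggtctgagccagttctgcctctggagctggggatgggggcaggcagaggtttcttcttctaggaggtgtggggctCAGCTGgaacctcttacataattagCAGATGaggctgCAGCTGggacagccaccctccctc

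The stretch held 3 matches, CAGCTG at 2 places with CAGATG between them. Of 32851 RefSeq promoter windows cut to the same 157 bases, 50.8% held at least 1 match and 4.27% at least 3. Among the 8 members with a RefSeq window (*Ptgis* was not in the table used), *Hpgd*, *Ptgs1* and *Ptgs2* held 2 matches each, *Hpgds* and *Ptges* 1 each, and *Ptges2* and *Ptges3* none. A match is a description of the letters and says nothing of whether a factor binds there.

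*Ptgds* was the most abundant of the 9 transcripts in every library. In WT cerebella its level was 683, 715 and 468 CPM in mice 1, 2 and 3. In *Snx14*-KO cerebella it was 1567, 1459 and 1632 CPM. The lowest *Snx14*-KO cerebellum was above the highest WT cerebellum, and the WT group was the more spread, with mouse 3 below the other two. In WT cortices the level was 445, 345 and 433 CPM. In *Snx14*-KO cortices it was 563, 652 and 563 CPM. All 3 *Snx14*-KO cortices were above all 3 WT cortices, by a smaller margin than in cerebellum. Such levels are averages over the whole tissue, so more *Ptgds*-expressing cells and more *Ptgds* RNA per cell cannot be told apart.

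**Figure D1:**
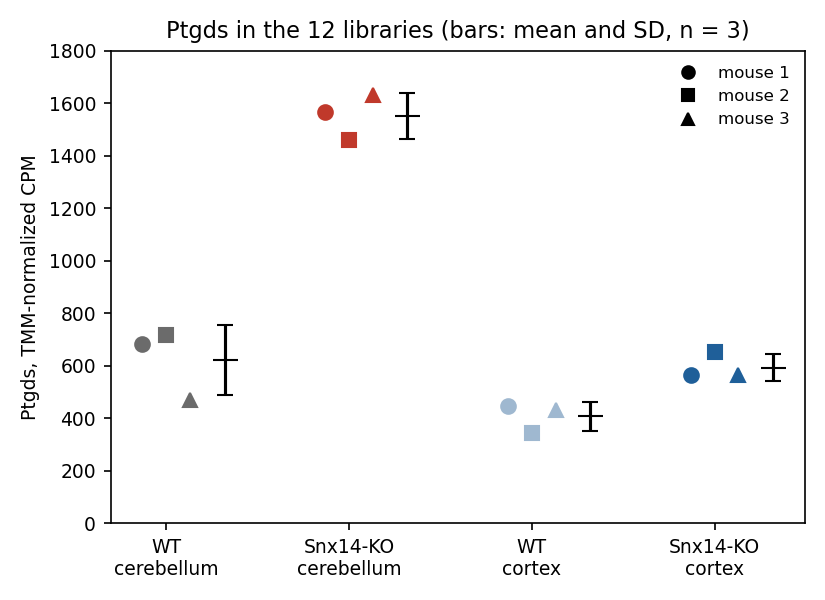
Each point is the *Ptgds* level of a library in TMM-normalized CPM, by group, with the shape giving the mouse number within its genotype and the bar the mean and SD (n = 3). The *Snx14*-KO cerebella sit between 1459 and 1632 CPM, above every other library, and the *Snx14*-KO cortices lie between 563 and 652 CPM, above the WT cortices and within the range of the WT cerebella.

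In cerebellum the mean was 622 ± 135 CPM (SD, n = 3) in WT and 1553 ± 87.5 CPM (SD, n = 3) in *Snx14*-KO mice, a log2 fold change of 1.34 (standard error, SE, 0.143), or 2.53-fold. In cortex the means were 408 ± 54.6 and 592 ± 51.3 CPM (SD, n = 3 each), with a log2 fold change of 0.54 (SE 0.0969), or 1.45-fold. The genotype difference was larger in cerebellum by 0.78 on the log2 scale (SE 0.193). Leaving out single libraries gave log2 fold changes of 1.16 to 1.45 (cerebellum) and 0.43 to 0.61 (cortex). These values chose the gene or come from the same contrasts. Their SEs take no account of that choice, and no *P* value or interval is given for them. Ordered by mean level, the 4 groups ran from *Snx14*-KO cerebellum through WT cerebellum and *Snx14*-KO cortex to WT cortex, and the middle pair overlapped.

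*Ptgds* ranked 132 by mean CPM among the 55536 genes in WT cerebellum and 24 in *Snx14*-KO cerebellum. In cortex it ranked 364 in WT and 192 in *Snx14*-KO mice. It took 0.0495% to 0.0738% of all counts in WT cerebella and 0.152% to 0.175% in *Snx14*-KO cerebella.

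The levels of the 9 enzymes were compared with each other as CPM per kilobase of exon sequence. *Ptgds* was at 377 in WT cerebellum and 247 in WT cortex on this scale. *Ptges3*, a cochaperone of HSP90 also described as a cytosolic prostaglandin E synthase, followed at 46.3 in both tissues. *Ptges2*, a membrane-associated prostaglandin E synthase, was at 6.56 and 7.61, and *Hpgd*, the dehydrogenase that inactivates prostaglandins, at 5.53 and 3.91. The remaining 5 enzymes lay between 0.118 and 3.71 CPM per kilobase, with *Ptgs2* lowest in WT cerebellum and *Ptges* lowest in WT cortex. In each of the 4 groups the ranges of *Ptgds* and *Ptges3* overlapped neither each other nor that of a lower enzyme. In WT cerebellum the libraries of *Ptges2* and *Hpgd* overlapped, as did each neighbouring pair from *Ptgs1* through *Ptges* and *Ptgis* to *Hpgds*. In WT cortex each neighbouring pair from *Hpgd* through *Ptgs1* and *Ptgs2* to *Ptgis* overlapped. Summed over the 9 enzymes per kilobase, *Ptgds* made up 82.6% to 86.9% in WT cerebella, 92.8% to 94.2% in *Snx14*-KO cerebella, 74.4% to 79.8% in WT cortices and 82.0% to 85.3% in *Snx14*-KO cortices.

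Whether the other enzymes differed between *Snx14*-KO and WT mice was tested with edgeR's quasi-likelihood test, with *P* values adjusted over all genes by the Benjamini-Hochberg method. A gene was called where the adjusted p was under 0.05 and the log2 fold change was over 0.50 in either direction. In cerebellum 0 of the 7 enzymes tested were called, where 0.00549% of all 18201 genes were, which is *Snx14* alone. *Hpgds* and *Ptgis* had an unadjusted p under 0.05, as 8.15% of all genes did, and DESeq2 called 0 of the 7 and 0.901% of all genes. *Hpgds*, *Ptgs1* and *Ptgis* were higher in all 3 *Snx14*-KO cerebella than in all 3 WT cerebella, 3 of 7, where 6.22% of all genes were. The median log2 fold change was 0.39 over the 7 enzymes, 0.12 without *Snx14*-KO mouse 3 and 0.26 without WT mouse 3, and within 0.01 of 0 over all genes tested.

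*Hpgds* (chr6:65117293-65144908, minus strand), the hematopoietic-type synthase that makes the same prostaglandin as *Ptgds* in microglia and mast cells, was at 1.83, 2.65 and 2.63 CPM in WT cerebella and at 3.39, 2.81 and 6.50 CPM in *Snx14*-KO cerebella. The *Snx14*-KO values of mice 1 and 2 were just above the WT range, and mouse 3 was far above it. The log2 fold change was 0.85 (SE 0.341, adjusted p = 0.545), and 0.39 without *Snx14*-KO mouse 3. That library also had the highest sum of microglia genes. All 12 microglia genes had estimates above 0 in cerebellum, where 49.9% of all genes did, and their median of 0.67 was 0.25 without mouse 3. The summed level was 230 to 288 CPM in WT and 275 to 685 CPM in *Snx14*-KO cerebella, and no gene of the list was at 0. Its part in the *Hpgds* values was not tested.

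*Ptgs1* (chr2:36230426-36252272, plus strand), the constitutive cyclooxygenase, was at 5.95, 5.77 and 5.05 CPM in WT and at 6.31, 6.56 and 9.26 CPM in *Snx14*-KO cerebella. Again mouse 3 was highest and the other *Snx14*-KO mice lay just above the WT range. The log2 fold change was 0.42 (SE 0.189, adjusted p = 0.633), and 0.21 without mouse 3. *Hpgd* (chr8:56294585-56321043, plus strand) had the same highest library, with 10.01, 10.3 and 7.62 CPM in WT and 8.80, 11.3 and 16.1 CPM in *Snx14*-KO cerebella. Its groups overlapped, and its log2 fold change was 0.39 (SE 0.225, adjusted p = 0.761), or 0.12 without mouse 3.

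*Ptgis* (chr2:167191805-167240604, minus strand), prostacyclin synthase, was at 1.06, 2.65 and 2.85 CPM in WT and at 3.35, 4.80 and 3.30 CPM in *Snx14*-KO cerebella. These values rest on 19 to 53 and 61 to 87 counts, and WT mouse 1 was lowest by a wide margin. The log2 fold change was 0.81 (SE 0.358, adjusted p = 0.610), and 0.47 without WT mouse 1. Of its 2567 exon bases, 6.08% are also exon sequence of *1110018N20Rik*, and read pairs there were counted for both genes.

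The prostaglandin E synthases of the cerebellum showed no separation of the genotypes. *Ptges* (chr2:30889471-30929863, minus strand), the inducible microsomal synthase, was at 4.17, 7.27 and 3.70 CPM in WT and 5.12, 4.96 and 5.36 CPM in *Snx14*-KO cerebella (log2 fold change 0.04, 95% interval -0.53 to 0.62). *Ptges2* (chr2:32395896-32405772, plus strand) was at 30.4 to 34.8 CPM in WT and 30.0 to 34.2 CPM in *Snx14*-KO cerebella (-0.06, interval -0.26 to 0.14). *Ptges3* (chr10:128058954-128077272, plus strand) was at 98.4 to 107 CPM in WT and 91.6 to 111 CPM in *Snx14*-KO cerebella (0.03, interval -0.17 to 0.23). The estimate of *Ptges* was 0.40 without WT mouse 2, -0.14 without WT mouse 3, -0.083 without WT mouse 1 and 0.0027 without *Snx14*-KO mouse 3. Without the last of these libraries *Ptges2* was at -0.046 and *Ptges3* at -0.014.

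*Ptgs2* (chr1:150100031-150108227, plus strand), the inducible cyclooxygenase that responds to neuronal activity in the forebrain, was too low in cerebellum to be tested between genotypes. Its 6 cerebellar libraries held 5 to 22 counts each, 0.389, 0.692 and 0.537 CPM in WT and 0.526, 1.21 and 0.271 CPM in *Snx14*-KO mice, and the WT values fell within the *Snx14*-KO range. Tested with every gene that had a count, its log2 fold change was 0.31 (adjusted p = 0.927, edgeR), so no difference was detectable at this depth. Where it passed the filter with a single library left out, the estimate ran from 0.12 without WT mouse 1 to 0.67 without *Snx14*-KO mouse 3.

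**Figure D2:**
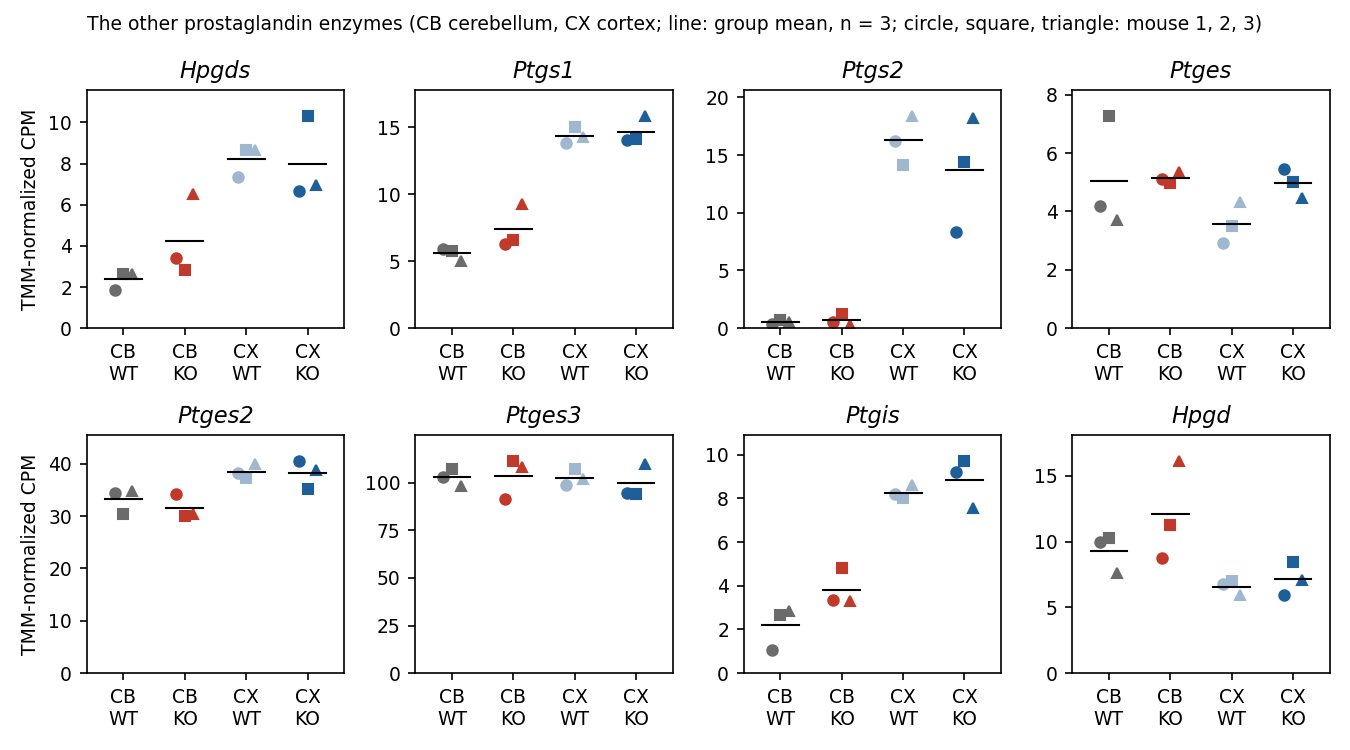
Each panel plots an enzyme in TMM-normalized CPM for the 12 libraries, with the group mean as a line (n = 3). In cerebellum (CB) the *Snx14*-KO points of *Hpgds*, *Ptgs1* and *Ptgis* lie above the WT points with mouse 3 (triangle) highest for the first pair, and *Ptgs2* is at 1.21 CPM or less in every cerebellum against 8.32 to 18.4 CPM in cortex (CX).

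In cortex 0 of the 8 other enzymes were called by edgeR, where 0.00548% of all 18255 genes were, again *Snx14* alone. DESeq2 also called 0 of the 8, and 0.0493% of all genes. *Ptges* had an unadjusted p under 0.05, 1 of 8 against 4.50% of all genes, and it alone was higher in all 3 *Snx14*-KO cortices than in all 3 WT cortices, where 4.57% of all genes were. Its level was 2.92, 3.49 and 4.33 CPM in WT and 5.44, 4.99 and 4.47 CPM in *Snx14*-KO cortices. The highest WT and the lowest *Snx14*-KO library were nearly equal. The log2 fold change was 0.47 (SE 0.204, adjusted p = 0.996), and 0.35 without WT mouse 1.

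The other 7 enzymes overlapped between the genotypes in cortex. *Ptgs2* was at 16.3, 14.2 and 18.4 CPM in WT and 8.32, 14.4 and 18.2 CPM in *Snx14*-KO cortices. Only *Snx14*-KO mouse 1 lay below the WT range. The log2 fold change was -0.25 (SE 0.220, adjusted p = 0.996), and 0.00 without that mouse. *Hpgds* was at 7.33 to 8.65 CPM in WT and 6.69 to 10.3 CPM in *Snx14*-KO cortices (log2 fold change -0.03, 95% interval -0.44 to 0.37), or -0.27 without *Snx14*-KO mouse 2. *Ptgs1* was at 13.9 to 15.0 and 14.1 to 15.9 CPM (0.03, interval -0.22 to 0.28), and *Ptgis* at 7.999 to 8.60 and 7.57 to 9.71 CPM (0.10, interval -0.22 to 0.42). *Hpgd*, *Ptges2* and *Ptges3* had log2 fold changes of 0.12, -0.01 and -0.04. Without *Snx14*-KO mouse 2 the values were 0.054 for *Ptgs1*, 0.019 for *Ptgis*, -0.017 for *Hpgd*, 0.041 for *Ptges2* and -0.0064 for *Ptges3*. The median of the 8 estimates was 0.01, where the median over all genes tested was within 0.01 of 0.

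**Figure D3:**
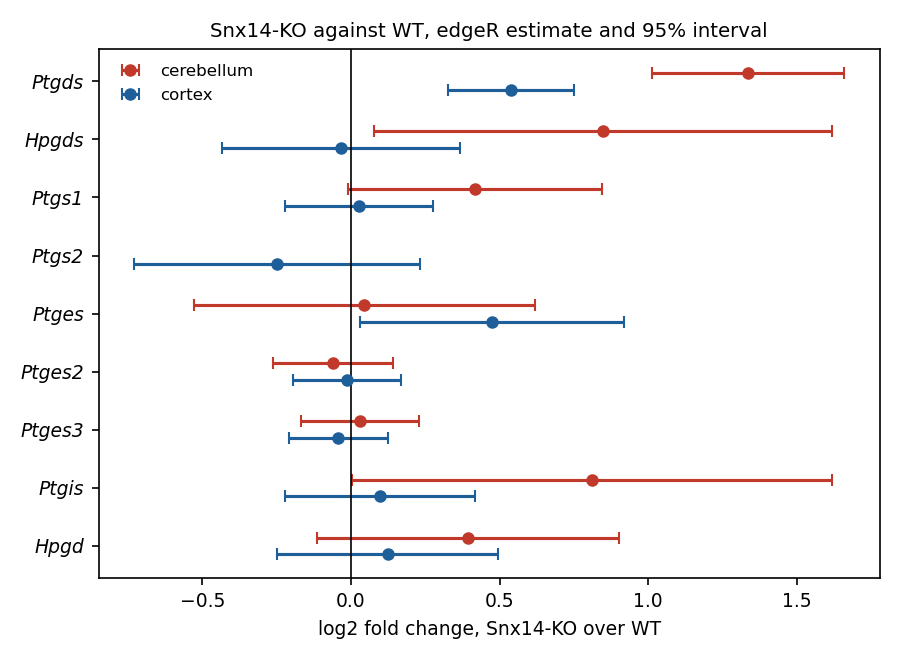
Points are edgeR's log2 fold changes of *Snx14*-KO over WT for each enzyme, and bars the 95% intervals, in cerebellum (red) and cortex (blue); *Ptgs2* was not tested in cerebellum. *Ptgds*, which was chosen on this difference, lies at 1.34 and 0.54, and its bars take no account of that choice and are no test. The intervals of *Hpgds* and *Ptgis* in cerebellum and *Ptges* in cortex exclude 0 before adjustment over all genes.

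Whether the genotype difference itself differed between the tissues was tested with an interaction term over all 12 libraries. By edgeR 0 of the 8 other enzymes and 0% of 19380 genes were called, by DESeq2 0 of the 8 and 0.201% of all genes, and 5.68% of all genes had an unadjusted p under 0.05. *Hpgds* was the only enzyme of the 8 at that unadjusted level, with a larger estimate in cerebellum by 0.87 (SE 0.399, adjusted p = 0.867), or 0.42 without *Snx14*-KO cerebellum 3. The estimates of the other 7 ran from -0.44 for *Ptges*, which was -0.087 without WT cerebellum 2, to 0.70 for *Ptgis*, which was 0.37 without WT cerebellum 1. Without *Snx14*-KO cerebellum 3 the difference of *Ptgs1* was 0.18 rather than 0.37, that of *Hpgd* -0.012 rather than 0.25, and that of *Ptgs2* 0.91 rather than 0.55. In the same way that of *Ptges2* was -0.034 rather than -0.06, and that of *Ptges3* 0.026 rather than 0.06. The difference of *Ptgs2* changed sign, to -0.15, without *Snx14*-KO cerebellum 2, and was 0.36 without WT cerebellum 1 and 0.29 without *Snx14*-KO cortex 1.

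The pathway around these enzymes was described with lists chosen by function, in which the named genes are, unless said otherwise, among the most abundant. No gene of the 5 lists was called by edgeR or DESeq2 in either tissue. Of the 20 genes that release arachidonate or its precursors, 13 were tested in each tissue. An unadjusted p under 0.05 was found for 0 in cerebellum and 1 in cortex (8.15% and 4.50% of all genes), and the median log2 fold changes were -0.01 and 0.01. *Mgll*, the lipase that frees arachidonate from 2-arachidonoylglycerol in brain, was at 80.6 to 88.8 CPM in WT and 82.5 to 86.9 CPM in *Snx14*-KO cerebella, with overlapping groups. *Dagla* and *Daglb*, the lipases that make 2-arachidonoylglycerol, had log2 fold changes of -0.04 and 0.08 in cerebellum and -0.01 and 0.02 in cortex. Of the exon bases of *Daglb*, 24.1% lie opposite *Rac1*, and counting without strand does not separate them. *Pla2g16*, a phospholipase, was at 40.4, 42.8 and 41.8 CPM in WT and 32.4, 23.6 and 36.3 CPM in *Snx14*-KO cortices (log2 fold change -0.44, adjusted p = 0.990), with *Snx14*-KO mouse 2 lowest, and in cerebellum at -0.14 (adjusted p = 0.751).

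Of 10 further prostanoid enzymes and carriers, 9 were tested in cerebellum and 10 in cortex, none at an unadjusted p under 0.05 (8.15% and 4.50% of all genes). The medians were 0.03 and 0.06, which with single libraries left out ran from -0.042 to 0.087 and from -0.00013 to 0.15. The most abundant were the reductases *Ptgr2*, *Fam213b*, *Cbr1* and *Akr1b3*, whose log2 fold changes ran from -0.14 to 0.12 in cerebellum and from -0.12 to 0.04 in cortex. *Ptgr2* shares 32.0% of its exon bases with *Gm47484*. Of 15 lipoxygenase and leukotriene genes, which use arachidonate for other lipid signals, 8 were tested in cerebellum and 9 in cortex, also none at an unadjusted p under 0.05, with a median within 0.01 of 0 in cerebellum, or 0.20 without WT mouse 3, and of 0.08 in cortex. *Mgst3* and *Lta4h*, the most abundant of them, were at -0.03 and 0.03 in cerebellum. The lipoxygenases *Aloxe3* and *Alox8* were at -0.33 and 0.33 in cerebellum and at 0.17 and 0.30 in cortex.

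Of 9 prostanoid receptors, 6 were tested in cerebellum and 7 in cortex, with 1 in each at an unadjusted p under 0.05 (8.15% and 4.50% of all genes). All 6 estimates were above 0 in cerebellum, with a median of 0.26, as were 6 of 7 in cortex (50.0% of all genes), with a median of 0.22. The median in cerebellum was 0.10 without WT mouse 3, 0.11 without *Snx14*-KO mouse 2, 0.42 without WT mouse 1 and 0.51 without *Snx14*-KO mouse 1, and that in cortex ran from 0.093 without *Snx14*-KO mouse 1 to 0.33 without *Snx14*-KO mouse 3. *Ptgfr*, the prostaglandin F receptor, was at 1.22, 1.38 and 0.805 CPM in WT and 2.25, 2.21 and 2.38 CPM in *Snx14*-KO cerebella (log2 fold change 1.02, SE 0.288, adjusted p = 0.358). *Ptgdr*, a receptor for the product of PTGDS that is named after its values were seen, was low, at 0.376 to 1.04 CPM in WT and 0.937 to 1.46 CPM in *Snx14*-KO cerebella, with overlapping groups. In cortex it was at 0.342 to 0.903 and 0.835 to 1.87 CPM, also overlapping (log2 fold change 1.02, SE 0.434, adjusted p = 0.996). This was the highest estimate among the 7 receptors tested in cortex. *Ptger4*, a prostaglandin E receptor, had log2 fold changes of 0.15 in cerebellum and 0.01 in cortex. Exons of other genes on the opposite strand cover 22.1% of the exon bases of *Ptgdr* and 16.5% of those of *Ptger4*. *Ptger3* was not tested in cerebellum and was at 0.23 in cortex.

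Of the 9 other lipocalins, the family to which PTGDS belongs, 4 were tested in cerebellum and 3 in cortex, 2 and 0 of them at an unadjusted p under 0.05 (8.15% and 4.50% of all genes). *Apod*, the most abundant, was at 326 to 363 CPM in WT and 334 to 386 CPM in *Snx14*-KO cerebella (log2 fold change 0.09) and at -0.06 in cortex. *Rbp4*, a retinol carrier, was at 3.34, 6.29 and 2.85 CPM in WT and 8.99, 5.73 and 7.85 CPM in *Snx14*-KO cerebella (log2 fold change 0.87, SE 0.299, adjusted p = 0.445), and at -0.23 in cortex. *C8g*, a chain of complement component 8, had log2 fold changes of -0.22 and 0.37 with adjusted p of 0.946 and 0.996. *Lcn2*, the siderophore-binding lipocalin-2, was below 1 CPM in every library, with 0.334, 0.0577 and 0.215 CPM in WT and 0.717, 0.882 and 0.596 CPM in *Snx14*-KO cerebella (log2 fold change 1.83, SE 0.551, adjusted p = 0.383).

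Markers of the cells known to express *Ptgds* were compared with it library by library. Of 16 meningeal fibroblast genes, 13 had an unadjusted p under 0.05 in cerebellum (8.15% of all genes), all 16 had higher estimates in *Snx14*-KO mice (49.9%), and 13 were higher without overlap (6.22%). The median log2 fold change was 1.16, against 1.34 for *Ptgds*. edgeR called 0 of the 16 and DESeq2 called 12 (0.901% of all genes). Summed over the list, the level was 199, 400 and 396 CPM in WT and 589, 551 and 579 CPM in *Snx14*-KO cerebella, with no overlap and with no gene of the list at 0. The WT cerebellum with the lowest meningeal sum, that of mouse 1, had *Ptgds* at 683 CPM.

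In cortex all 16 meningeal genes again had higher estimates, with a median of 0.73, but the median was 0.17 without *Snx14*-KO mouse 2. The summed level was 185, 127 and 146 CPM in WT and 177, 463 and 169 CPM in *Snx14*-KO cortices. Mice 1 and 3 of the *Snx14*-KO group lay within the WT range of the meningeal sum. Their *Ptgds* was at 563 CPM in both, and the highest WT cortex was at 445 CPM. The part of meningeal cells in these values was not tested. Without mouse 2 the log2 fold change of *Ptgds* in cortex was 0.46. The 5 genes of border macrophages, which also lie in the meninges, had medians of 1.03 in cerebellum and 0.82 in cortex, and the latter was -0.14 without *Snx14*-KO mouse 2, 0.47 without WT mouse 2 and 1.54 without WT mouse 1.

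Markers of the choroid plexus and of oligodendrocytes had median log2 fold changes below 0 in both tissues. The 13 choroid plexus genes had lower estimates throughout in *Snx14*-KO cerebella, with a median of -0.71, and 0 had an unadjusted p under 0.05 (8.15% of all genes). Their summed level was 87.2, 2797 and 7597 CPM in WT and 2085, 3272 and 994 CPM in *Snx14*-KO cerebella, and the WT cerebellum of mouse 3, highest for these genes, had the lowest *Ptgds* of the 6 cerebella. Without that library the median was 0.44, and it was -1.28 without WT mouse 1, -1.11 without *Snx14*-KO mouse 2 and -0.37 without *Snx14*-KO mouse 3. In cortex the sums were 19.3 to 146 CPM in WT and 11.9 to 15.1 CPM in *Snx14*-KO mice, with no overlap and at most 1 gene at 0. Of the 7 genes tested 2 had a lower level at an unadjusted p under 0.05 (4.50% of all genes in either direction). The median was -0.75, or -0.0037 without WT mouse 1, the library at 146 CPM. The 12 oligodendrocyte genes had medians of -0.15 in cerebellum and -0.25 in cortex, where 8 of them had a lower level at an unadjusted p under 0.05 (4.50% of all genes in either direction). The cortical median was -0.14 without *Snx14*-KO mouse 2, and the cerebellar median was -0.040 without WT mouse 1 and -0.25 without WT mouse 3. Their sums were 11316 to 14712 CPM in WT and 11516 to 13351 CPM in *Snx14*-KO cerebella. The part of these cell types in the *Ptgds* values was not tested.

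**Figure D4:**
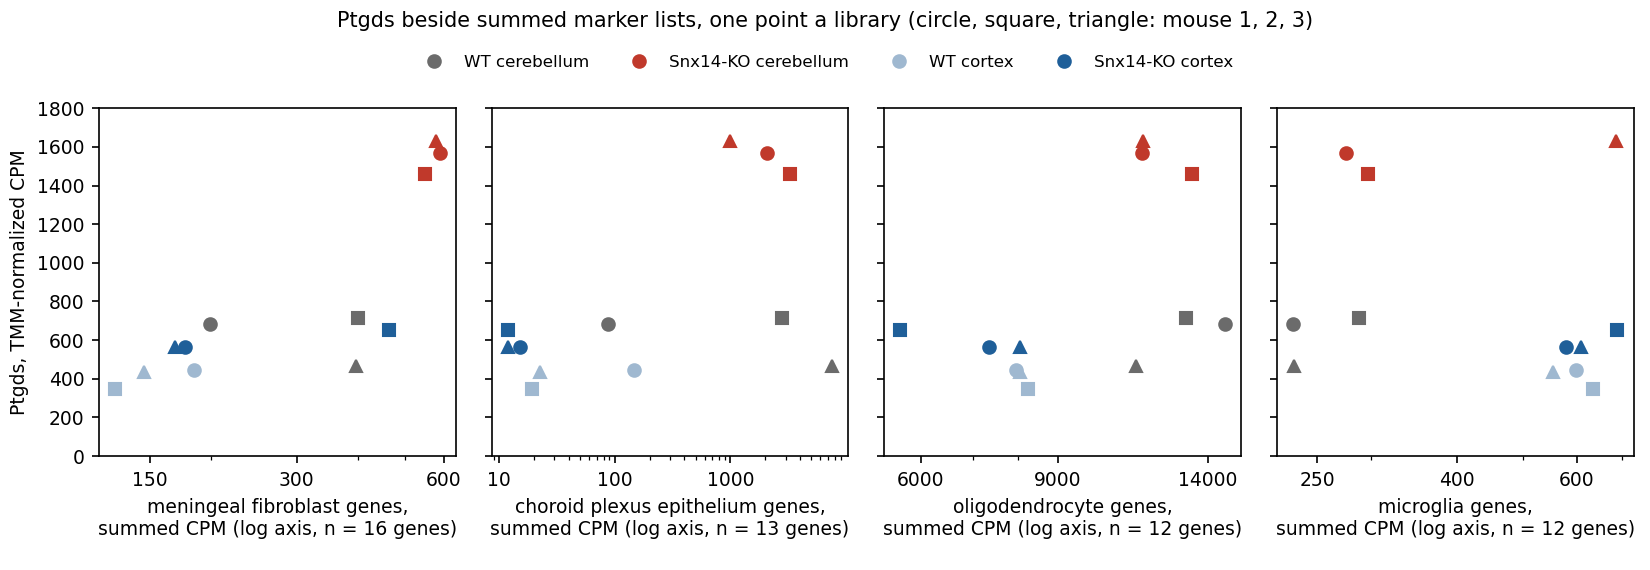
Each point is a library, with its *Ptgds* level in TMM-normalized CPM on the y axis and the summed CPM of a list of cell type markers on the x axis (log scale), for meningeal fibroblasts, choroid plexus epithelium, oligodendrocytes and microglia. The *Snx14*-KO cerebella have the highest meningeal sums, 551 to 589 CPM, and choroid plexus sums within the WT range. The *Snx14*-KO cortices of mice 1 and 3 have meningeal sums within the WT range and *Ptgds* at 563 CPM.

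The genes whose pattern was most like that of *Ptgds* were found by Pearson's r of log2 levels after the mean of each tissue was subtracted, over the 12 libraries and 19379 genes. Only tissue means were subtracted, so r also holds the genotype difference on which *Ptgds* was chosen. Since the libraries share their tissue and genotype, r is given as a description. *Slc22a8*, the organic anion transporter OAT3, was closest at r = 0.986. Its level was 9.34, 9.81 and 6.55 CPM in WT and 20.5, 18.2 and 18.7 CPM in *Snx14*-KO cerebella. In cortex it was at 9.19, 8.11 and 7.91 CPM in WT and 11.004, 13.2 and 10.8 CPM in *Snx14*-KO mice. As for *Ptgds*, WT cerebellum 3 was lowest in its group and *Snx14*-KO cortex 2 highest. The log2 fold changes of *Slc22a8* were 1.18 in cerebellum (SE 0.157) and 0.47 in cortex (SE 0.141).

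The next was *Slc22a6*, the related transporter OAT1 and a member of the meningeal list, at r = 0.936. Its log2 fold changes were 1.40 in cerebellum and 0.66 in cortex. *Col6a3*, a collagen VI chain, followed at 0.927, *Isyna1*, the inositol-3-phosphate synthase, at 0.922, *Crabp2*, a retinoic acid binding protein also on the meningeal list, at 0.918 and *Sdk1*, a cell adhesion protein, at 0.912. *Gm25749* (0.923) and *Gm20547* (0.920) also ranked among the first 8, but all their exon bases (100%) lie over *Gria2* and over *Cfb* and *C2*, so their counts share reads with those genes. Over whole lists the median r was 0.81 for the 16 meningeal genes, 0.65 for the border macrophage genes, 0.57 for the microglia genes, 0.49 for the prostanoid receptors, 0.48 for the 8 other enzymes, -0.17 for the choroid plexus genes and -0.34 for the oligodendrocyte genes. The remaining lists ran from -0.50 for erythrocyte genes to 0.47 for the other lipocalins, with 0.44 for astrocyte and Bergmann glia genes. Over the 6 cortices alone the median of the 8 enzymes was -0.050 and that of the microglia genes 0.26. Among the 8 enzymes *Ptgs1* had the highest r over the 12 libraries, at 0.677, with 0.776 over the cerebella and -0.106 over the cortices, where *Ptges* had the highest, at 0.716.

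Cerebellum and cortex were compared within each genotype. In WT mice 4 of the 8 enzymes other than *Ptgds* were called, all 4 lower in cerebellum, where 40.4% of 18543 genes were called, 19.0% higher and 21.4% lower. These comparisons use the same libraries as those between genotypes and are not independent of them. *Ptgds* had a log2 fold change of 0.61 (SE 0.150) between the WT tissues, given as a description since these libraries served to choose it. Within each mouse the ratio of cerebellum to cortex was 1.53, 2.07 and 1.08. WT mouse 3 thus had nearly equal levels in both tissues. The estimate was 0.50 without WT cerebellum 2 or without WT cortex 2.

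The cyclooxygenases were lower in WT cerebellum. *Ptgs2* differed most, at 0.389 to 0.692 CPM in cerebellum against 14.2 to 18.4 CPM in cortex (log2 fold change -4.90, SE 0.222, adjusted p = 2.11e-08). *Ptgs1* was at 5.05 to 5.95 CPM against 13.9 to 15.0 CPM (log2 fold change -1.36, SE 0.131, adjusted p = 7.74e-06). All 6 mice had less of both in cerebellum than in cortex.

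*Hpgds* and *Ptgis* were lower in WT cerebellum as well. *Hpgds* was at 1.83 to 2.65 CPM against 7.33 to 8.65 CPM (log2 fold change -1.78, SE 0.195, adjusted p = 2.06e-05). *Ptgis* was at 1.06 to 2.85 CPM against 7.999 to 8.60 CPM (log2 fold change -1.91, SE 0.289, adjusted p = 0.00023). Of the microglia genes, all 12 were called lower in cerebellum, where 21.4% of all genes were, with a median of -1.41. Their summed level was 230 to 288 CPM in WT cerebella and 554 to 634 CPM in WT cortices, and its part in the *Hpgds* and *Ptgs1* values was not tested.

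The prostaglandin E synthases and *Hpgd* differed less. *Ptges3* was at 98.4 to 107 CPM in WT cerebella and 98.9 to 107 CPM in WT cortices, a log2 fold change of 0.01 (95% interval -0.14 to 0.15). *Ptges2* was at 30.4 to 34.8 against 37.3 to 40.02 CPM, with a log2 fold change of -0.21 (adjusted p = 0.0491) that is under the fold threshold. *Ptges* had a log2 fold change of 0.50 (SE 0.276, adjusted p = 0.147) with overlapping groups. *Hpgd* was at 7.62 to 10.3 against 5.98 to 6.98 CPM, and its log2 fold change of 0.50 (SE 0.161, adjusted p = 0.0218) fell just short of the fold threshold. It was called without WT cerebellum 3 (0.63), without WT cortex 1 (0.51) or without WT cortex 2 (0.54).

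In *Snx14*-KO mice 5 of the 8 enzymes other than *Ptgds* were called between the tissues, 1 higher and 4 lower in cerebellum, where 37.9% of 18542 genes were called, 18.2% higher and 19.6% lower. *Ptgds* had a log2 fold change of 1.40 (SE 0.0858), again as a description. The ratio of cerebellum to cortex was 2.78, 2.24 and 2.90 in mice 1, 2 and 3. All 3 ratios were above the 3 WT ratios, the highest of which was 2.07. The difference between these tissue contrasts is the same quantity as the difference of the genotype effect given above, 0.78.

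*Ptgs2*, *Ptgs1* and *Ptgis* were lower in *Snx14*-KO cerebellum as in WT cerebellum, with log2 fold changes of -4.34 (adjusted p = 1.96e-05), -0.99 (adjusted p = 0.000748) and -1.20 (adjusted p = 0.000635). *Hpgds* was called at -0.91 (SE 0.308, adjusted p = 0.0309), but its within-mouse ratios of cerebellum to cortex were 0.507, 0.273 and 0.932, and the call was lost without *Snx14*-KO cerebellum 1 (-0.77) or 2 (-0.69) or without cortex 2 (-0.69) or 3 (-0.99). Of the microglia genes, 6 of 12 were called lower in cerebellum in these mice, where 19.6% of all genes were. *Hpgd* was called at 0.76 (SE 0.229, adjusted p = 0.0192), and this call was lost without *Snx14*-KO cerebellum 3 (0.50) or without cortex 1 (0.64) or 3 (0.76). *Ptges2*, at -0.26, *Ptges*, at 0.06, and *Ptges3*, at 0.07, were not called.

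**Figure D5:**
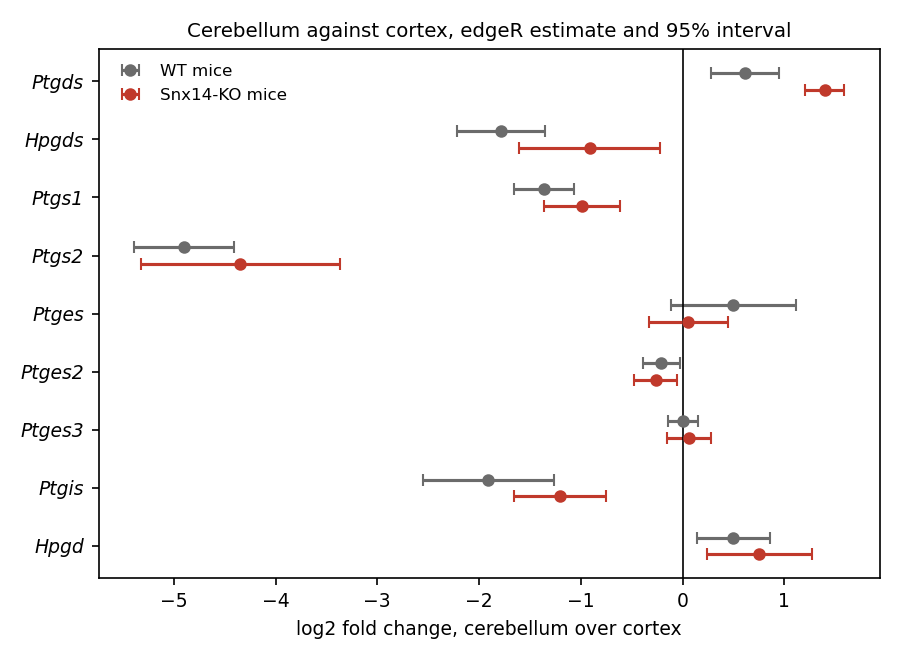
Points are edgeR's log2 fold changes of cerebellum over cortex and bars the 95% intervals, in WT (grey) and *Snx14*-KO mice (red). *Ptgs2* lies farthest from 0, at -4.90 and -4.34, *Ptgds*, whose values are a description, lies at 0.61 and 1.40, and *Ptges3* lies near 0 in both genotypes.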

How the data were processed

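Reads were trimmed and aligned to GRCm38 with STAR by the authors, who counted read pairs on the exons of each gene with featureCounts (Subread 2.0.1) without using strand and with overlapping genes each credited, and deposited these raw counts per library. The submitters' notes also name DESeq2 1.38.3. The 26345 counted features that are not genes (0.0506% to 0.0632% of counts) were left out. From the counts, levels were computed as CPM after TMM normalization over the 12 libraries, and per kilobase by exon length. Comparisons within a tissue or genotype were fitted to all genes that passed filterByExpr with edgeR 4.0.16 (R 4.3.3), after the script was tested on simulated data. Alternatives were DESeq2 1.42.0 with its size factors, no filter, a replicate block, all 12 libraries in a fit, no fold threshold and each library left out. Tissue comparisons pair by mouse through the labels, which name the same mouse in both tissues (same-mouse correlations of deviations 0.0271 to 0.373), but were fitted without the pairing, which the block adds, while WT and *Snx14*-KO mice share only a number. No libraries were identical. The enzymes, the gene lists and the tests were chosen with earlier results of these data known. Named genes were the 9 enzymes, up to 4 genes per pathway list by mean CPM (1 receptor is not reported here) plus any called gene, and the 8 genes most like *Ptgds*.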

Additional observations from a re-analysis of the deposited data

How the results depend on the processing

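The counts of enzymes called were 0 in each genotype comparison without *Ptgds* and 0 for the difference of the genotype effect. Between tissues they were 5 in WT and 6 in *Snx14*-KO mice with *Ptgds* counted, and 4 and 5 without it. *Ptgds* was chosen on these libraries, so no call of it is made from these counts. The counts, with *Ptgds* included between tissues, stayed within 1.5 times under each alternative run. With the replicate block they were again 0, 0, 0, 5 and 6, and the block changed no call of an enzyme. With single libraries left out they were 0 in the genotype comparisons and, with *Ptgds* counted, 4 to 6 (WT) and 4 to 5 (*Snx14*-KO) between tissues. The counts over all genes did move: DESeq2 called 164 genes in cerebellum, 9 in cortex and 39 for the difference, testing every gene with a count gave 347, 149 and 386, fitting all 12 libraries together gave 45 and 2, and leaving out *Snx14*-KO cerebellum 2 gave 254 in cerebellum and 253 for the difference. The cause was not tested.

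Some estimates changed sign, none of them of a called difference. *Ptges3* between WT tissues was -0.0050 with DESeq2 or its size factors and -0.0026 with every gene with a count. With single libraries left out the ranges were -0.14 to 0.40 for *Ptges* and -0.032 to 0.11 for *Ptges3* in cerebellum, -0.27 to 0.076 for *Hpgds*, -0.062 to 0.041 for *Ptges2*, -0.51 to 0.0024 for *Ptgs2*, -0.017 to 0.24 for *Hpgd* and -0.030 to 0.061 for *Ptgs1* in cortex, -0.15 to 0.91 for *Ptgs2* and -0.012 to 0.44 for *Hpgd* for the difference, -0.032 to 0.036 for *Ptges3* between WT tissues and -0.0067 to 0.13 for *Ptges* between *Snx14*-KO tissues. In cerebellum *Ptgs2* had 5 to 22 counts per library, which limits its precision.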
